A study of Mus musculus with 15 samples.

Results

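The hedgehog genes described here were 9 genes of the Sonic hedgehog pathway, namely the ligand *Shh*, the receptors and co-receptors *Ptch1*, *Hhip*, *Boc* and *Cdon*, the transducer *Smo*, and the transcription factors *Gli1*, *Gli2* and *Gli3*. They were chosen by name, as the rows of the count tables whose Ensembl identifier carries one of these symbols in the GENCODE M21 mouse annotation. All 9 were found, among 38561 genes listed, and all 9 passed the filter on low counts that left 14293 genes for testing.

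Purkinje cells (PCs), the output neurons of the cerebellar cortex, secrete Shh, and the neighbouring granule cell progenitors of the external granular layer divide in response to it after birth. Without ligand, Ptch1 holds Smo inactive. When Shh binds Ptch1, with Boc, Cdon or Gas1 as co-receptors, Smo enters the primary cilium and Gli2 and Gli3 are turned from repressors into activators, after which *Gli1*, *Ptch1* and *Hhip* are induced as targets. Bergmann glia, whose cell bodies lie beside those of PCs, are also known to respond to Shh.

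PCs had been cut by laser from the cerebella of male mice (strain given as C56/BL6 in the sample labels and as C57/BL6 in the study's methods), with 3 biological replicates at each of 5 ages (P0, the day of birth, then P4, P8, P14 and lastly P21), and no treatment or genetic change was named for any group. The P0 samples were cut as groups of PCs lying together, and all later samples as 1000 separately cut cell bodies each, so the way of capture and the P0 time point cannot be told apart. Total counts on genes ran from 3409371 to 7814951 per library, and a further 18.2% to 31.0% of the reads counted fell outside genes or could not be given to 1 gene. The question was how each hedgehog gene behaved over the first 3 weeks after birth.

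*Boc* and *Gli2* fell with postnatal day in the reported fit, and none of the other 7 hedgehog genes passed the test in either direction. Both calls depended on the setting. Each was lost with limma-voom, with day on a log2(day + 1) scale and without P21 replicate 3. The call of *Gli2* was also lost without the P0 time point. Neither gene passed when day was treated as 5 separate groups. The fitted line for *Boc* dropped by 2.37 on the log2 scale between P0 and P21 (SE 0.75), which is 5.18-fold. That for *Gli2* dropped by 2.43 (SE 0.79), which is 5.39-fold. Leaving out single samples moved the *Boc* figure between 3.84-fold (without P0 replicate 2) and 8.72-fold (without P21 replicate 1). The *Gli2* figure moved between 3.92-fold (without P0 replicate 3) and 6.30-fold (without P0 replicate 2). *Shh* was read in all 15 libraries at every time point, with time point means between 3.003 and 4.92 RPKM (reads per kilobase of exon and per 1000000 reads on genes). In a bulk sample such as this, fewer cells of a type and less RNA per cell cannot be told apart. The 2 genes that fell out of 9 (22.2%) stood beside 14.1% of all tested genes that fell, and the 0 that rose stood beside 12.1% that rose, so the members' counts were near the background.

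**Figure D1:**
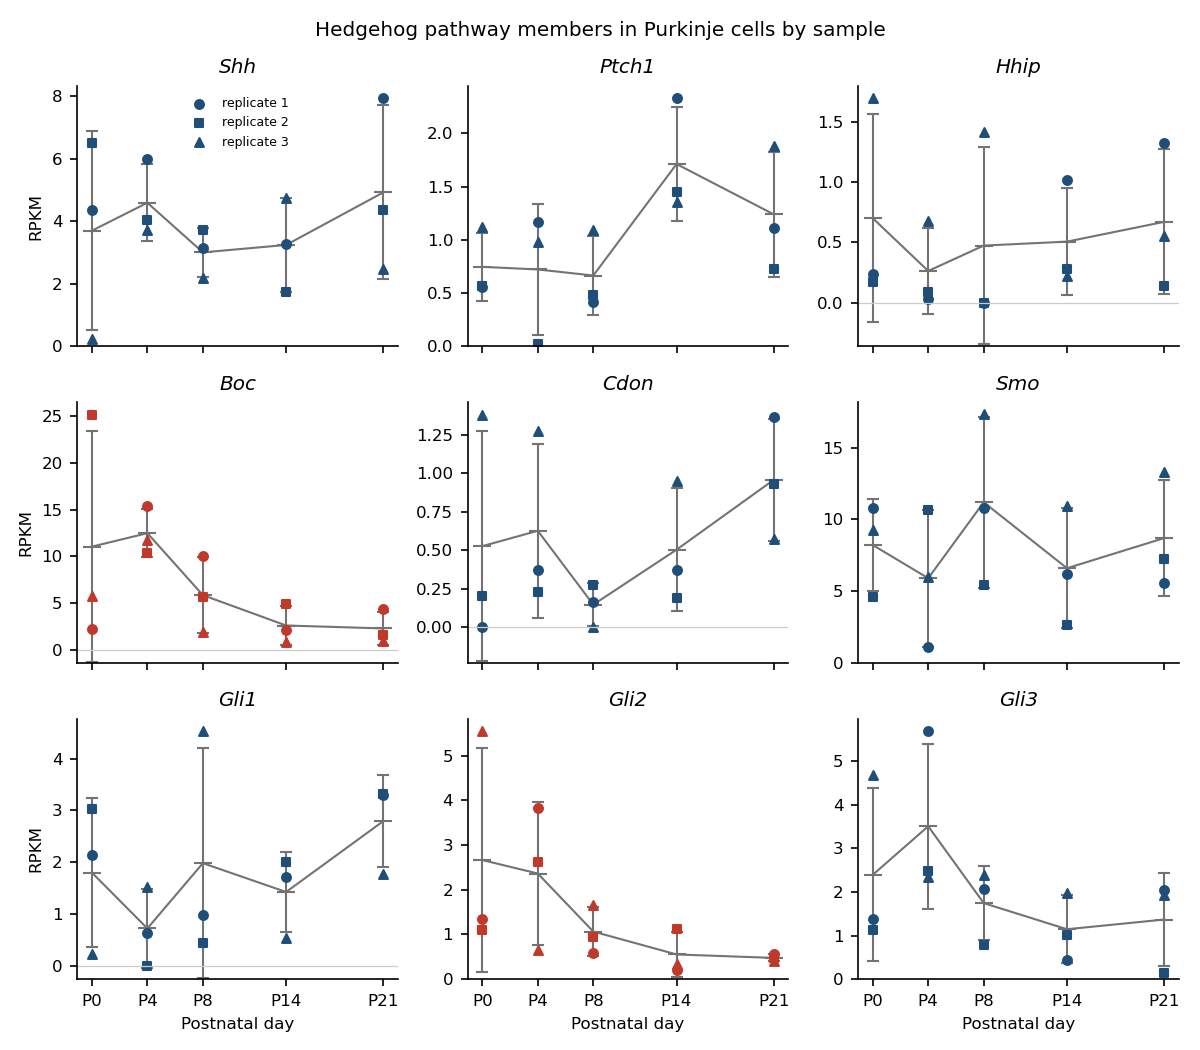
Level of each of the 9 genes in RPKM (vertical axis, a separate scale for each gene) against postnatal day (horizontal axis), with 1 symbol for each of the 3 replicates; grey lines join the time point means and grey bars are 1 SD. *Boc* and *Gli2* (red) lie lower at P14 and P21 than most of their P0 and P4 samples, and the 3 replicates of 1 time point are far apart for most of the genes.

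The ligand came first. *Shh* (ENSMUSG00000002633) lies on the minus strand at chr5:28456815-28467256 in GRCm38. At P0 its level was 4.35 and 6.497 RPKM in replicates 1 and 2 but 0.239 RPKM in replicate 3, where 3 reads were counted against 58 and 83 in the others. The 3 samples gave 5.999, 4.05 and 3.72 RPKM at P4, then 3.13, 3.71 and 2.17 RPKM at P8. They gave 3.26, 1.73 and 4.73 RPKM at P14, and 7.93, 4.36 and 2.46 RPKM at P21. The ranges of the time points overlapped, except that in RPKM the lowest P4 sample lay just above the highest P8 sample. The highest and the lowest sample of the course were at P21 and P0.

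The mean *Shh* level was 3.69 ± 3.18 RPKM (SD, n = 3) at P0 and 4.59 ± 1.23 at P4. The later means were 3.003 ± 0.778 at P8, 3.24 ± 1.50 at P14 and 4.92 ± 2.78 RPKM at P21. The trend with day was 0.03 log2 units per day (SE 0.033, edgeR quasi-likelihood adjusted p = 0.613), a fitted change over 21 days of 0.56 log2 units (SE 0.70). Leaving out single samples moved the *Shh* slope between 0.0029 without P21 replicate 1 (edgeR adjusted p = 0.970) and 0.042 without P0 replicate 2 (0.453), and without P0 replicate 3 it was 0.011 (0.819). The replicate error therefore left room for a change in either direction, and a steady level is not shown by this p.

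The first exon of *Shh* overlaps an exon of *Gm26894*, a gene on the opposite strand at chr5:28466374-28480973, and a second opposite-strand gene, *9530036O11Rik*, also shares exon bases with it. *Gm26894* drew 376 reads in all, from 0 to 38 at P0 and from 28 to 62 at P21, and *9530036O11Rik* drew 34. The library kit does not mark strand, so reads in the shared stretch cannot be assigned to either strand, and the *Shh* values carry that limit. Exons of *Gli1* and *Gli3* also overlap those of opposite-strand genes, *Arhgap9* (31 reads in all) and *Gm6556* (33), so the same limit holds for them.

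The other ligands and the release machinery were a list of 8 genes, of which 6 passed the filter on low counts. *Dhh*, the Desert hedgehog ligand, was listed at 0 in all 15 libraries, where lack of expression and loss in counting cannot be told apart, and *Ihh*, the Indian hedgehog ligand, had 11 reads, all in 1 library. *Scube1* and *Scube2*, which encode secreted proteins (Scube2 helps to free lipid-modified Shh from the cell that makes it), fell with day. *Scube2* averaged 5.93 ± 3.61 and 6.58 ± 2.49 RPKM (SD, n = 3) at the first 2 ages and 2.42 ± 2.84 at P8, was without a read at P14, and averaged 0.229 ± 0.292 RPKM at P21 (slope -0.28 log2 units per day, SE 0.074, edgeR adjusted p = 0.00889). *Scube1* had a slope of -0.23 (SE 0.070, edgeR adjusted p = 0.0223). *Disp2*, a relative of the Shh transporter Disp1, lay between 9.12 and 12.4 RPKM at every time point with an edgeR adjusted p of 0.579. Of the 6, 2 fell (33.3%) and 0 rose, beside 14.1% of all tested genes that fell and 12.1% that rose. The median slope of the list was -0.08, against -0.01 over all tested genes.

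The receptors followed. *Ptch1* (ENSMUSG00000021466, chr13:63508328-63573598, minus strand, GRCm38) encodes the Shh receptor that represses Smo and is itself a target of the pathway. Its level was 0.556, 0.566 and 1.12 RPKM at P0, and 1.17, 0.0180 and 0.982 RPKM at P4. It was 0.419, 0.483 and 1.09 RPKM at P8, then 2.33, 1.45 and 1.35 RPKM at P14 and 1.12, 0.723 and 1.88 RPKM at P21. In RPKM all 3 samples at P14 lay above every earlier sample, while 2 of the 3 P21 samples lay within the earlier range.

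*Ptch1* had the steepest upward slope of the 9 genes, 0.07 log2 units per day (SE 0.038), but it missed the threshold (edgeR adjusted p = 0.174). From P8 to P14 the difference was 1.51 log2 units (SE 0.92, edgeR adjusted p = 0.544), the smallest adjusted p of any member in that step. Without the legacy dispersion setting of edgeR, an option tried after the data were seen, *Ptch1* passed the threshold (adjusted p = 0.0469), in a fit that called 14.98% of all tested genes higher and 17.6% lower.

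*Boc* (ENSMUSG00000022687, chr16:44485049-44558897, GRCm38) encodes a membrane co-receptor that binds Shh and acts with Ptch1. At P0 the 3 samples gave 2.20, 25.1 and 5.81 RPKM, the widest spread of any member at any time point in RPKM. At P4 they gave 15.3, 10.3 and 11.8 RPKM, and at P8 10.01, 5.71 and 1.89 RPKM. At P14 they gave 2.12, 4.88 and 0.887 RPKM, and at P21 4.35, 1.58 and 1.03 RPKM. All 3 samples at P4 were above all 6 samples at P14 and P21, but 1 of the P0 samples lay among those late ones. Over P0 and P4 together, the level in CPM (counts per 1000000 counts, with library sizes scaled by the TMM method) ran from 8.85 to 99.6 with a median of 47.4, and over P14 and P21 from 4.22 to 22.8 with a median of 9.28, so the early and late samples overlapped.

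The slope of *Boc* was -0.11 log2 units per day (SE 0.036, edgeR quasi-likelihood adjusted p = 0.0244). Its means, in order of age, were 11.05 ± 12.3, 12.5 ± 2.58, 5.87 ± 4.06, 2.63 ± 2.04 and 2.32 ± 1.78 RPKM (SD, n = 3 each). The call was lost without P0 replicate 2 (edgeR adjusted p = 0.0975), without P21 replicate 2 (0.0604) and without P21 replicate 3 (0.0675), and also with limma-voom (0.108) and with day on a log2(day + 1) scale (0.0778). Without all P0 samples *Boc* kept its call, with an edgeR adjusted p of 0.0244.

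*Cdon* (ENSMUSG00000038119, chr9:35421128-35507652, GRCm38), which encodes the co-receptor related to Boc, was near the limit of detection. It had no read in 2 libraries, P0 replicate 1 and P8 replicate 3. A count of 0 there allows up to 3 counts, or 0.640 and 0.561 per 1000000 counts on genes, without the TMM scaling. Its highest sample was 1.38 RPKM, at P0, and its time point means lay between 0.148 ± 0.140 at P8 and 0.958 ± 0.398 RPKM at P21 (SD, n = 3). Its slope was 0.05 (SE 0.056, edgeR adjusted p = 0.537). *Boc* and *Cdon* thus gave slopes of opposite sign, of which that of *Boc* alone passed, and the difference between the slopes was not tested.

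*Hhip* (ENSMUSG00000064325, chr8:79965851-80058006, GRCm38), which encodes a membrane protein that binds hedgehog ligands and holds them back, had a mean of 0.524 RPKM over the 15 samples, the lowest of the members on that scale, although *Cdon* was lower in mean CPM (4.39 against 4.80) and in mean RPKM at P0, P8 and P14. It had no read in P8 replicates 1 and 2, yet 69 reads, or 1.42 RPKM, in P8 replicate 3. At P0 it ran from 0.172 to 1.70 RPKM and at P21 from 0.139 to 1.32 RPKM. Its slope was 0.03 (SE 0.065, edgeR adjusted p = 0.793), and no direction held for it, since leaving out single libraries moved the slope between -0.01 and 0.09.

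Among the other membrane proteins of the pathway, a list of 4 genes with 3 tested, *Gas1* rose and 0 of 3 fell. Over all tested genes 12.1% rose and 14.1% fell. *Gas1*, a co-receptor anchored in the membrane that works beside Boc and Cdon, averaged 3.23 ± 1.14, 1.203 ± 0.132, 3.20 ± 0.515, 8.22 ± 0.340 and 10.3 ± 1.68 RPKM (SD, n = 3 each) in order of age. Its slope was 0.13 (SE 0.026, edgeR adjusted p = 0.00119). Of the co-receptors that bind Shh, *Boc* therefore fell and *Gas1* rose over the same samples, and *Gas1* had the higher mean RPKM of the pair at P14 and P21 but not at P0, P4 or P8. *Gpr161*, a ciliary receptor that restrains the pathway, had a slope of -0.25 that missed the threshold (edgeR adjusted p = 0.0536).

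**Figure D2:**
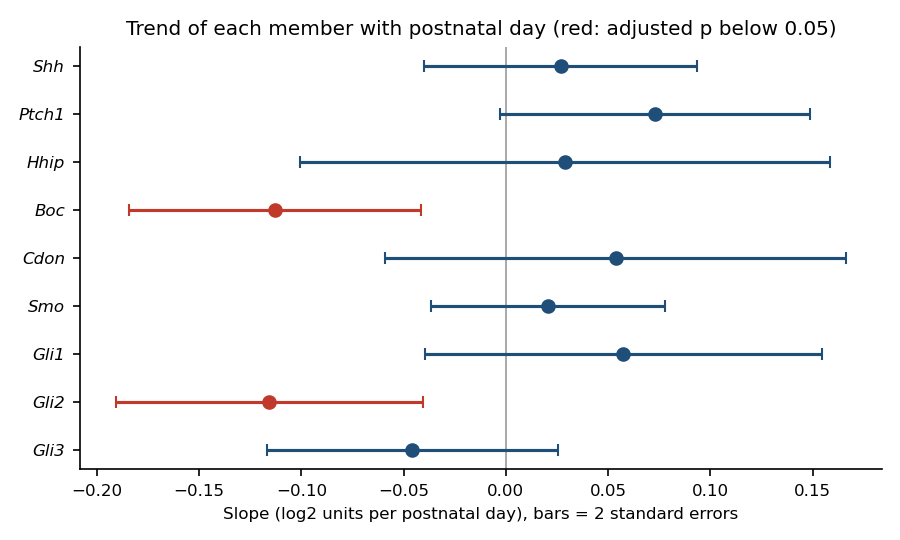
Slope of each of the 9 genes in log2 units per postnatal day (horizontal axis; bars are 2 standard errors) from the edgeR fit over all 15 samples. *Boc* at -0.11 and *Gli2* at -0.12 (red) are the members below the 0.05 threshold; the bars of the other 7 cross 0.

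*Smo* (ENSMUSG00000001761, chr6:29735503-29761365, GRCm38) encodes the transmembrane protein that carries the signal once Ptch1 lets it go. It had the highest mean of the 9 genes, 8.11 RPKM over the 15 samples. The samples ran from 4.60 to 10.8 RPKM at P0 and from 1.08 to 10.7 at P4. Later they ran from 5.43 to 17.3 RPKM at P8, from 2.63 to 10.96 at P14 and from 5.58 to 13.3 at P21. Every time point overlapped every other, and the slope was 0.02 (SE 0.029, edgeR adjusted p = 0.655). *Smo* also had the smallest biological coefficient of variation of the members, 0.569, the replicate scatter that edgeR estimates as a share of the level.

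Downstream of Smo, the list of cytoplasmic transducers held 21 genes, all tested, of which 1 fell (4.76%) and 2 rose (9.52%), shares below those of all tested genes (14.1% and 12.1%). *Sufu*, which binds Gli proteins and keeps them inactive, averaged between 1.91 and 4.99 RPKM at the 5 time points (slope -0.02, SE 0.029, edgeR adjusted p = 0.677). The 3 that changed encode parts of protein kinase A, which phosphorylates Gli2 and Gli3 in the absence of ligand and has many other roles. *Prkaca* rose (0.04, SE 0.011, edgeR adjusted p = 0.00684), as did *Prkar1a* (0.03, SE 0.010, edgeR adjusted p = 0.0172), while *Prkacb* fell (-0.05, SE 0.013, edgeR adjusted p = 0.00934). The median slope of the 21 was -0.00365, close to that of all tested genes. Of 10 cilium genes, all tested, *Inpp5e* rose (0.13, SE 0.045, edgeR adjusted p = 0.0385), a phosphatase of ciliary membrane lipids, and 0 fell, with a median slope of 0.0033.

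The Gli factors closed the chain. *Gli2* (ENSMUSG00000048402, chr1:118834132-119053619, minus strand, GRCm38) encodes the main activator of the pathway. At P0 its level was 1.34, 1.10 and 5.55 RPKM, and at P4 3.83, 2.61 and 0.649 RPKM. At P8 it was 0.587, 0.940 and 1.66 RPKM. At P14 it was 0.196, 1.12 and 0.340 RPKM, and at P21 0.555, 0.472 and 0.395 RPKM. In RPKM the 3 P21 samples lay close together and below every P0 and P4 sample. In CPM P21 replicate 1, at 4.34, lay above P4 replicate 3, at 4.11. A further 1 P14 sample, at 1.12 RPKM, was above the lowest P0 sample and above 1 P4 sample.

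In TMM-scaled CPM the P0 and P4 samples ran from 4.11 to 34.1 with a median of 13.2, and the P14 and P21 samples from 1.47 to 8.04 with a median of 3.43. The slope of *Gli2* was -0.12 log2 units per day (SE 0.037, edgeR quasi-likelihood adjusted p = 0.0278), and its means, in order of age, were 2.66 ± 2.50, 2.36 ± 1.60, 1.06 ± 0.548, 0.551 ± 0.495 and 0.474 ± 0.0802 RPKM (SD, n = 3 each). The call was lost without P0 replicate 3, the sample with 168 reads (edgeR adjusted p = 0.114), without P21 replicate 3 (0.0580) and without the P0 time point (0.0881). It was also lost with limma-voom (0.0748) and on the log2(day + 1) scale (0.0538).

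*Gli3* (ENSMUSG00000021318, chr13:15463235-15730026, GRCm38), which encodes the factor that acts mainly as a repressor, had the same sign of slope as *Gli2* but did not pass (-0.05, SE 0.036, edgeR adjusted p = 0.386). Its samples gave 1.38, 1.12 and 4.68 RPKM at P0, and 5.70, 2.48 and 2.34 RPKM at P4. They ran from 0.775 to 2.40 RPKM at P8, from 0.440 to 1.98 at P14 and from 0.131 to 2.05 at P21. In RPKM all 3 P4 samples were above the 6 samples at P14 and P21, and 2 of the 3 P0 samples were among those late ones. In CPM P4 replicate 3, at 20.7, lay below P21 replicate 1, at 22.4.

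*Gli1* (ENSMUSG00000025407, chr10:127329882-127341974, GRCm38), which encodes an activator and is the usual readout gene of the pathway, gave 2.14, 3.03 and 0.227 RPKM at P0. It gave 0.631, 0 and 1.52 RPKM at P4, and 0.977, 0.431 and 4.53 RPKM at P8. The P4 sample without a read allows up to 0.384 per 1000000 counts on genes, without the TMM scaling. It gave 1.72, 2.01 and 0.539 RPKM at P14, and 3.29, 3.32 and 1.77 RPKM at P21. The P21 samples had the highest mean, 2.79 ± 0.883 RPKM (SD, n = 3), but the highest sample was at P8. The slope was 0.06 (SE 0.048, edgeR adjusted p = 0.429). *Gli1* and *Gli2* had slopes of opposite sign, that of *Gli2* past the threshold and that of *Gli1* not, and their difference was not tested.

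The region just before the start of *Gli2* is shown because *Gli2* was the Gli gene that fell, and that of *Hhip* because *Hhip* is a known target of the Gli factors. Both are the 250 bases upstream of the RefSeq start in GRCm38.p6, read 5′ to 3′ on the minus strand, at chr1:119053620-119053869 for *Gli2* and chr8:80058009-80058258 for *Hhip*. Capitals mark a match to the core of the Gli recognition motif.
Gli2: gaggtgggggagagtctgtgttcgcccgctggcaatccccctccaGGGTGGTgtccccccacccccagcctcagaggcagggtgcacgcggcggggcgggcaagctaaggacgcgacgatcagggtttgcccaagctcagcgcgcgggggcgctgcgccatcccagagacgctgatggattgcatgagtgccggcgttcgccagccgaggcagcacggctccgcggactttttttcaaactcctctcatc
Hhip: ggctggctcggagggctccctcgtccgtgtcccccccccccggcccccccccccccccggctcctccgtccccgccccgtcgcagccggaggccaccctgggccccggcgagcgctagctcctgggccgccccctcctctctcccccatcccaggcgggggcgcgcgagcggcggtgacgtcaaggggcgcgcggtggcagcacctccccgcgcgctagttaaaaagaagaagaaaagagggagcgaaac
The motifs searched on both strands were GACCACCCA (reverse TGGGTGGTC) and its shorter core ACCACCC (reverse GGGTGGT), which lies inside the longer one. RefSeq promoter windows, from 250 bases before to 50 bases after the start, were at hand for 6 of the 9 genes. For *Cdon*, *Ptch1* and *Gli3* the RefSeq start lay inside the annotated gene, and the window did not reach the annotated start. The RefSeq and annotated starts were 35452076 and 35421128 for *Cdon*, 63565735 and 63573598 for *Ptch1*, and 15463723 and 15463235 for *Gli3*. The longer motif was in 0 of these 6 and in 0.253% of all 32851 windows, and the core was in 1 of 6, *Gli2*, and in 4.61% of all windows. In *Gli2* the core begins 205 bases before the start, and the G and C content of the 250 bases shown is 67.2%, that of *Hhip* 76.0%, and the median over all windows 52.4%. A match of letters is a description and says nothing on binding. *Shh*, *Gli1* and *Boc* were the members with no window.

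As a group, 0 of the 9 genes differed between time points when day was treated as 5 separate groups (edgeR quasi-likelihood, 0 of 9 also at an unadjusted p under 0.05), while 19.3% of all tested genes did. DESeq2 and limma-voom also called 0 of 9 there, with 2 and 1 at an unadjusted p under 0.05. *Boc* came nearest (edgeR adjusted p = 0.184), then *Gli2* (0.238) and *Ptch1* (0.509). In the 4 steps between neighbouring time points edgeR called 0 of the 9, with 0 at an unadjusted p under 0.05, against 0.231% lower and 1.74% higher of all tested genes from P0 to P4, 0.252% and 0.882% from P4 to P8, 1.38% and 1.29% from P8 to P14, and 0.266% and 0.063% from P14 to P21. *Boc* and *Gli2* moved in steps none of which passed alone, the largest from P4 to P8, where *Boc* differed by -1.08 (SE 0.83) and *Gli2* by -1.14 log2 units (SE 0.92).

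The median slope of the 9 was 0.03 against -0.01 over all tested genes, and 3 of the 9 had a negative slope against 55.1% of all tested genes. No member had its P0 and P4 samples wholly above or wholly below its P14 and P21 samples in CPM, against 7.14% of tested genes that went down without overlap and 8.24% that went up.

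Ordered by mean RPKM over the 15 samples, *Smo* (8.11) stood before *Boc* (6.87), *Shh* (3.89), *Gli3* (2.03), *Gli1* (1.74), *Gli2* (1.42), *Ptch1* (1.02), *Cdon* (0.553) and *Hhip* (0.524). Neighbours in this order did not differ beyond their spread in any of the 8 pairs. Here a pair was taken to differ where the gap between the means was larger than either SD. By the same measure within single time points, 1 of 8 neighbouring pairs differed at P0, where *Smo* stood above *Shh*, and 2 of 8 at P4, where *Boc* stood above *Smo* and *Gli2* above *Ptch1*. From P8 on, 0 of 8 pairs differed at any time point.

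The replicates of these genes were far apart. In 30 of the 45 combinations of gene and time point the highest of the 3 samples was at least 3 times the lowest, and the coefficient of variation of CPM had a median of 68.3% (17.5% to 173%). Over the 7221 tested genes in the same range of mean CPM, from 4.39 to 45.9, that median was 47.9%. The biological coefficient of variation was highest for *Hhip* (1.32), *Cdon* (1.16) and *Gli1* (0.980), and its median over the 9 was 0.721 against 0.584 over all tested genes.

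The 6 other genes known to respond to Shh in granule cell progenitors were tested too, and 4 of them fell while 0 rose, beside the 14.1% of all tested genes that fell and the 12.1% that rose. *Mycn*, which drives progenitor growth, averaged 31.6 ± 8.48 RPKM (SD, n = 3) at P0 and 4.98 ± 2.77 at P21 (slope -0.14, SE 0.027, edgeR adjusted p = 0.00051). The cyclin gene *Ccnd1* went from 11.6 ± 0.681 to 0.515 ± 0.417 RPKM, *Ccnd2* from 18.8 ± 2.83 to 0.499 ± 0.151, and *Foxm1*, a factor of dividing cells, from 3.62 ± 3.52 to 0 reads at P21, with edgeR adjusted p-values of 0.000343, 4.4e-06 and 0.0013. The median slope of the 6 was -0.16, against -0.01 over all tested genes. *Sfrp1* (edgeR adjusted p = 0.527) and *Nkx2-2* (0.537) did not pass. Roles in progenitors and in cell division are known for these genes, and what lay behind their falls was not tested. The targets among the 9 members had slopes of 0.07 (*Ptch1*, SE 0.038), 0.06 (*Gli1*, SE 0.048) and 0.03 (*Hhip*, SE 0.065). None of these 3 passed in the reported fit, and their difference from the response genes was not tested.

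**Figure D3:**
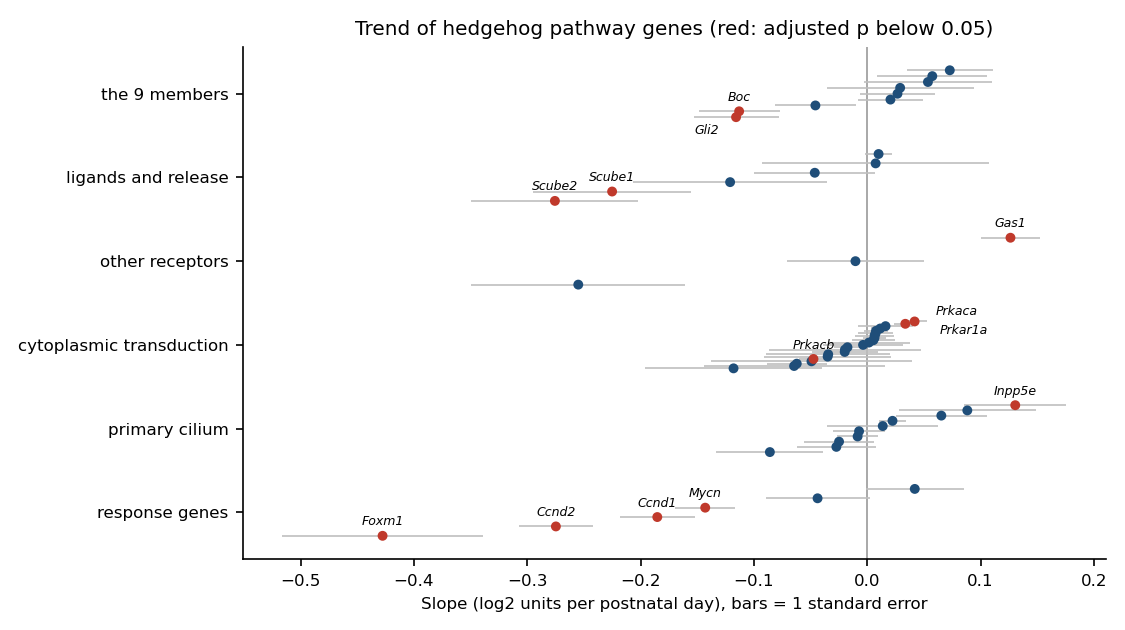
Slope of every tested gene of the 9 members and the 5 further lists of pathway genes in log2 units per postnatal day (horizontal axis; bars are 1 standard error), 1 row of points for each list. Red points passed at an adjusted p of 0.05 and are named; 4 of 6 response genes lie to the left, and most of the 21 cytoplasmic genes lie near 0.

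Markers of other cells moved over the same samples. The counts of marker genes below stand beside 14.1% of all tested genes that fell and 12.1% that rose. The summed level of 6 PC markers rose from a mean of 5340 CPM at P0 to 42941 CPM at P21, and all 6 of its genes passed. The list of granule cell progenitors and dividing cells (6 genes, 5 tested) went from between 389 and 415 CPM at P0 to between 1.001 and 3.68 CPM at P21, with 4 genes falling (*Mki67*, *Top2a*, *Cdk1*, *Ccnb1*). *Atoh1*, which defines the progenitors, was listed at 0 in all 15 libraries, which may be a matter of counting and so gives no reading of progenitor content, and *Barhl1*, another granule lineage gene, had a slope of -0.05 (SE 0.085, edgeR adjusted p = 0.728). The falls of *Boc*, *Gli2*, *Mycn* and the cyclin genes thus ran beside a fall of the division markers, whose part in them was not tested.

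The 10 markers of Bergmann glia and astrocytes summed to between 4311 and 5972 CPM at P0, between 8307 and 10181 at P8 and between 4058 and 5819 at P21. Of the 10 genes 5 rose (*Glul*, *Hopx*, *Sept4*, *Slc1a2*, *Slc1a3*) and 2 fell (*Aldh1l1*, *Fabp7*). *Fabp7* averaged 2401 RPKM at P0 and 130 at P21, and *Hopx* 7.69 and 83.1. The like sums at P0 and P21 thus held opposite moves and do not show a steady glial content. Glial markers were thus present in all samples, and hedgehog genes that glia express cannot be told apart here from those of PCs. Of the 6 granule neuron markers 3 rose and 0 fell. Their sums were 230 to 349 CPM at P0, 480 to 825 at P8, 500 to 1267 at P14 and 319 to 662 at P21, with the highest mean at P14. The 5 oligodendrocyte markers all rose, from a mean sum of 22.4 to 569 CPM. Of the 3 vascular markers 1 fell, and 0 of the 4 tested interneuron markers and 0 of the 4 microglial markers passed in the edgeR trend. The part of these cells in the hedgehog gene values was not tested.

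**Figure D4:**
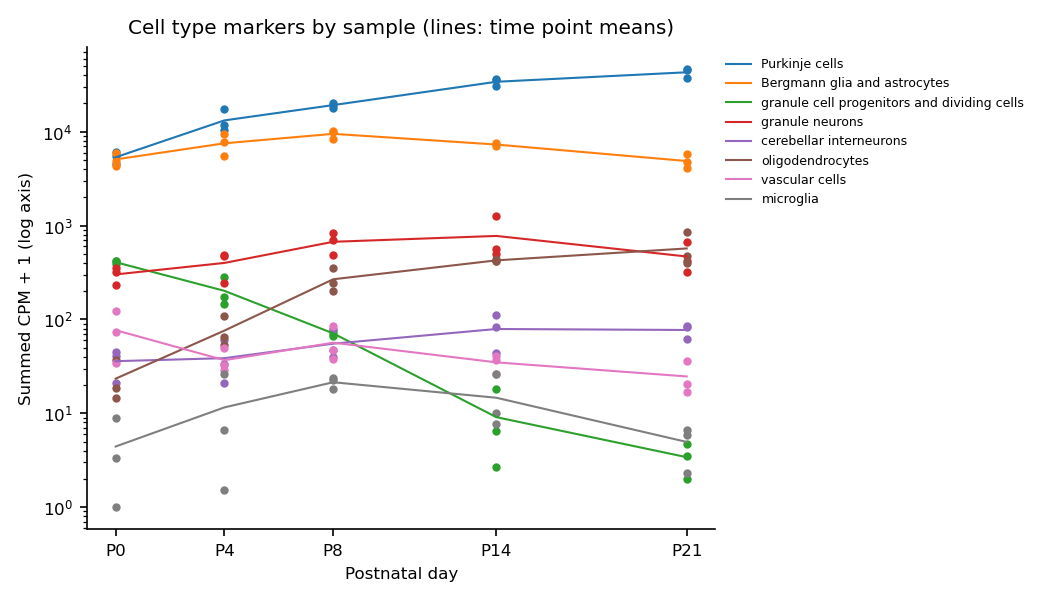
Summed CPM plus 1 of 8 lists of cell type markers (vertical log axis) against postnatal day, with 1 point for each sample and lines through the time point means. The PC sum rises to a mean of 42941 CPM at P21, and the glial sum lies between 4058 and 10181 CPM while single glial markers rise or fall. The sum for progenitors and dividing cells drops below 4 CPM by P21, and the genes of that list that fell were division markers.

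For 7 of the 9 genes, those with a mean of at least 5 CPM, the genes most like them over the 15 samples were sought among 11424 genes by Pearson's r of log2(CPM + 1); these values share libraries and depth and are a description. The closest to *Shh* were *Zzef1* (r = 0.895), *Ecd* (0.880) and *Borcs5* (0.862), and those to *Ptch1* were *Trafd1* (0.907), *Trpm2* (0.905) and *Msn* (0.893). For *Smo* they were *Rbfa* (0.933), *Ankrd54* (0.845) and *Rspry1* (0.796), and for *Boc* *Cdh10* (0.874), *Sh3bgrl2* (0.861) and *Trappc4* (0.848). For *Gli1* they were *Rfwd3* (0.865), *Cfp* (0.852) and *Ddi2* (0.852), for *Gli2* *Ndufs6b* (0.894), *Ndufs6* (0.881) and *Snrnp200* (0.849), and for *Gli3* *Qsox1* (0.891), *Mal2* (0.824) and *Nup43* (0.820). None of these 7 was among the 3 closest of another. The genes searched also had a mean of at least 5 CPM, so *Hhip* and *Cdon* could not appear. *Ndufs6b* and *Ndufs6* are near copies and may share reads.

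The support for the *Boc* and *Gli2* trends is shown for each setting tried. Beside the reported fit, *Boc* passed in 18 of 23 settings and *Gli2* in 18 of 23, with slopes below 0 in all of the 23. *Ptch1* passed in 1 of 23. Of these settings, 15 each left out a single sample, so they shared most of their data and are not separate support. *Boc* passed in 12 of those 15 and *Gli2* in 13. DESeq2 gave the lowest p for *Gli2* (adjusted p = 0.00534) and 0.00817 for *Boc*, with 15.9% of its tested genes called lower and 12.98% higher. Limma-voom, which called 12.6% of tested genes lower and 15.7% higher, called 0 of the 9 members in either direction, with 4 of 9 at an unadjusted p under 0.05 (*Boc* and *Gli2* downwards, *Ptch1* and *Gli1* upwards).

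**Figure D5:**
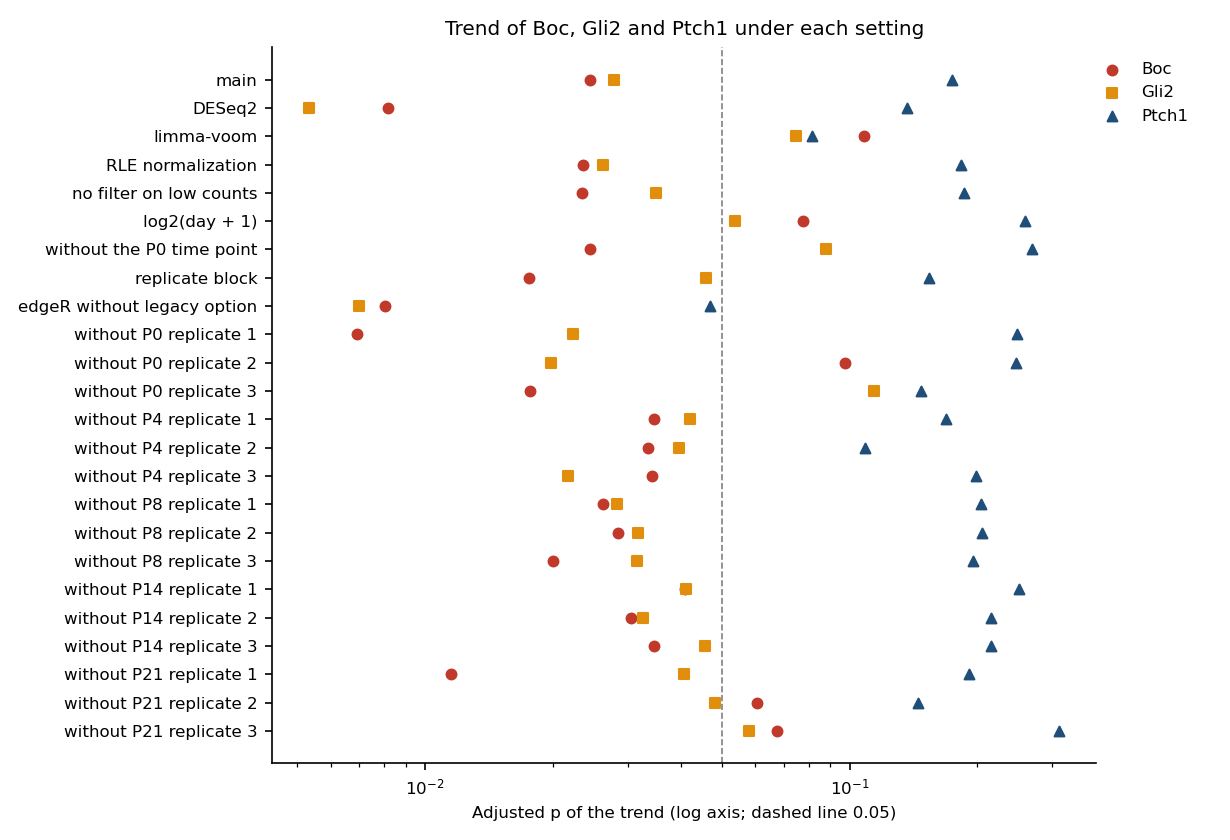
Adjusted p of the trend with day (horizontal log axis; dashed line at 0.05) of *Boc*, *Gli2* and *Ptch1* under each setting (1 row each), the reported fit at the top. *Boc* lies right of the line in 5 rows and *Gli2* in 5, among them limma-voom, and *Ptch1* lies left of it in 1.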

How the data were processed

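RNA from laser-captured PCs of 15 samples was sequenced by the authors as paired-end libraries (SMARTer kit, which does not mark strand). Per the labels, reads were trimmed with cutadapt 1.2.1, aligned to GRCm38/mm10 with GSNAP and counted with HTSeq 0.5.3p9; the deposited values are raw counts of uniquely mapped reads per Ensembl gene, in the intersection-strict mode. The annotation release and the strand setting are not given in the sources used here.

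Symbols, positions and exon lengths came from GENCODE M21, and promoter windows and their build from RefSeq. Rows for reads outside genes (18.2% to 31.0% of reads counted) were left out. RPKM used total counts on genes and summed exon length. Genes were filtered with filterByExpr, normalized by TMM and tested with the quasi-likelihood test of edgeR 4.0.16 (legacy dispersion setting, R 4.3.3), with day as a number for the trend and as 5 groups for other contrasts, all 15 samples in each fit. P-values were adjusted over all 14293 genes by Benjamini-Hochberg, with a threshold of 0.05. The fit was also run on simulated counts, with known slopes given to genes drawn at random. That run was not set to the slopes or the replicate spread of the hedgehog genes, so it does not show how well their changes could be detected.

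The named genes were the 9 members, the genes of the pathway and marker lists that passed or that define a list, and the 3 genes most like each member. The members and lists were chosen with earlier results of these data known. Alternatives were DESeq2 1.42.0, limma-voom (limma 3.58.1), RLE normalization, no filter, log2(day + 1), a replicate block, and leaving out P0 or each sample. Limits given for a count of 0 cover counting error only (3 counts). Replicates were described as biological. The values of 1 gene of the membrane protein list are not reported here.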

Additional observations from a re-analysis of the deposited data

How the results depend on the processing

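Of the 9 genes, the number that fell with day was 2 in the reported fit, 0 with limma-voom, 0 on the log2(day + 1) scale (10.3% of tested genes lower), 1 without the P0 time point (11.01% lower), and 0 to 2 when single samples were left out. The number that rose was 0, and 1 (*Ptch1*) with edgeR without its legacy option, an alternative chosen after seeing the data. Treating day as 5 groups, 2753 genes differed and DESeq2 called 4224; the cause was not tested. Replicate numbers did not pair the samples: the deviations of same-numbered samples had a mean correlation of -0.00329 over 30 pairs. With the replicate block, 2 of the 9 genes fell (*Gli2* adjusted p = 0.0458, *Boc* 0.0175), and the trend gave 1911 genes lower and 1723 higher. The slopes of *Boc* and *Gli2* stayed below 0 in every setting. Leaving out 1 of 3 samples moved some means far: *Boc* at P0 lay between 4.01 and 15.5 RPKM, and *Hhip* at P8 between 0 and 0.711 RPKM. With 3 samples a time point, replicates this far apart and few reads per gene, the change fitted for *Shh* did not pass. The smallest change that could be detected in these data was not estimated.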

Other observations

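In some libraries several of the 9 genes had the highest or the lowest value of their time point. The read numbers below are not scaled for library size. In P0 replicate 3, *Shh* (3 reads) and *Gli1* (5 reads) were the lowest of the P0 samples, while *Ptch1* (70), *Gli2* (168), *Gli3* (198), *Hhip* (68) and *Cdon* (47) were the highest. In P4 replicate 2, *Ptch1* had 2 reads and *Gli1* 0, the lowest of the P4 samples, while *Smo* had 468, the highest. In P8 replicate 3, *Ptch1* (83), *Smo* (521), *Gli1* (121), *Gli2* (61), *Gli3* (123) and *Hhip* (69) were the highest of the P8 samples and *Boc* (45), *Shh* (33) and *Cdon* (0) the lowest. With 3 replicates every gene has a highest and a lowest sample, so any library holds such places for many genes by arithmetic alone. These libraries were picked after their values were seen, and no test was made that they stood apart from the others.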
